A study of Homo sapiens with 10 samples.

Results

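The HOX genes encode homeodomain transcription factors that lie side by side in 4 clusters of the human genome, HOXA, HOXB, HOXC and HOXD. All genes with a symbol made of HOX, a cluster letter and a position number were taken, which gave 39 genes of the 58037 gene identifiers in the expression tables. The levels came from RNA sequencing of A549, a human lung adenocarcinoma cell line, and of A549/DDP, a cisplatin-resistant line that the study received as a gift; no cisplatin (DDP) is named in the culture medium of either line. Each line had 2 libraries of input RNA and 2 libraries of RNA pulled down with an antibody to N6-methyladenosine (m6A), a methyl mark on adenosines of mRNA, from which called m6A peaks were listed. Both lines were grown in the same serum-supplemented RPMI medium, and each stands for a single line, so resistance and any other difference between the lines cannot be told apart. The labels do not say that the 2 libraries of a line came from separate cultures, and p-values then measure the spread between these libraries only, which may be technical.

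HOX genes are numbered by their place along the cluster. Low numbers (anterior genes) are used early and towards the head of the embryo, and high numbers (posterior genes) later and towards the tail, an order known as collinearity. In adult cells part of the pattern is kept as a memory of position, held on by the MLL/COMPASS complexes and off by the Polycomb complexes. HOX proteins bind DNA together with TALE cofactors of the PBX, MEIS and PKNOX families, and retinoic acid is a known inducer of anterior genes. Here positions 1 to 3 are called anterior (8 genes), positions 4 to 8 central (15 genes) and positions 9 to 13 posterior (16 genes).

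The input libraries of the comparison held 29225501 to 35286514 estimated counts each. Of 6 lung epithelial markers, 5 were at 1 TPM (a level scaled per transcript length and library) or more in every library, while the summed TPM of 4 endothelial markers was at most 0.4. Of 5 leukocyte markers only CD68 was above 1 TPM, and of 5 fibroblast markers only COL1A1 was in every library. Of 3 neural markers 2 were at 1 TPM or more throughout, and their sum was 52.54 and 75.32 TPM in A549 and 185.33 and 244.99 in A549/DDP, mostly TUBB3; the part of this difference in the HOX values was not tested. A further pair of A549 input libraries was far shallower, at 855034 and 982036 counts, and was used only as an alternative. Reads were divided between overlapping genes, opposite strands included: 10 HOX genes (HOXA4, HOXA7, HOXA9, HOXB3, HOXB6, HOXC4, HOXC6, HOXC13, HOXD10 and HOXD11) had estimated counts that were not whole, and apart from the HOXC4 and HOXC6 pair they became whole when summed with those of overlapping partners. Levels of these 10 genes are uncertain for that reason. HOXA3, HOXA5, HOXA6, HOXB2, HOXB7 and HOXB9 had whole counts of their own.

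HOX RNA was plentiful in both lines and spread over all 4 clusters. A TPM of at least 1 was reached by 17 of the 39 genes in every library, by 13 in some libraries and by 9 in none, and 5 genes (HOXB1, HOXC5, HOXC12, HOXD3 and HOXD12) had no count at all. The summed TPM of the 39 genes was 347.45 and 369.81 in the A549 libraries and 322.39 and 279.29 in the A549/DDP libraries. Totals of these libraries did not overlap between the lines, but the clusters that made up the total differed far more than the total itself. In the shallow A549 pair the total was 102.34 and 60 TPM, below both A549/DDP libraries, so its direction depends on the A549 pair used.

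In the deeper A549 pair the HOXB cluster gave most of the HOX RNA, and in A549/DDP the HOXA and HOXB clusters gave similar amounts. The summed TPM of HOXB (chr17:48528526-48728750) was 233.41 and 250.69 in A549 and 136.25 and 96.41 in A549/DDP, or 67.2% and 67.8% of the HOX total against 42.3% and 34.5%. For HOXA (chr7:27092993-27200091) the summed TPM was 47.73 and 49.43 in A549 and 117.76 and 94.88 in A549/DDP, or 13.7% and 13.4% against 36.5% and 34.0%. Neither cluster's values overlapped between the lines. Most of the HOXB difference lay in HOXB7, at 146.3 ± 6.32 TPM in A549 and 55.5 ± 15.6 in A549/DDP (SD, n = 2 each), and HOXB9, at 30.3 ± 11.7 and 3.41 ± 0.34. In the shallow A549 pair HOXB summed to 89.31 and 45.93 TPM, so that against that pair the direction of its difference turned: the log2 ratio, A549/DDP over A549, was 0.78, and -1.06 against the deeper pair. HOXC (chr12:53938831-54056030) stood at 48.68 and 51.11 TPM in A549 and 53.1 and 77.43 in A549/DDP, and HOXD (chr2:176087487-176190907), the lowest cluster, at 17.63 and 18.58 against 15.28 and 10.57. With 2 libraries against 2, an exact permutation test cannot give a two-sided p below 0.333, so these sums were not tested. In bulk RNA, fewer cells that express a gene and less RNA per cell cannot be told apart. All 4 spans are in the hg38 build.

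**Figure D1:**
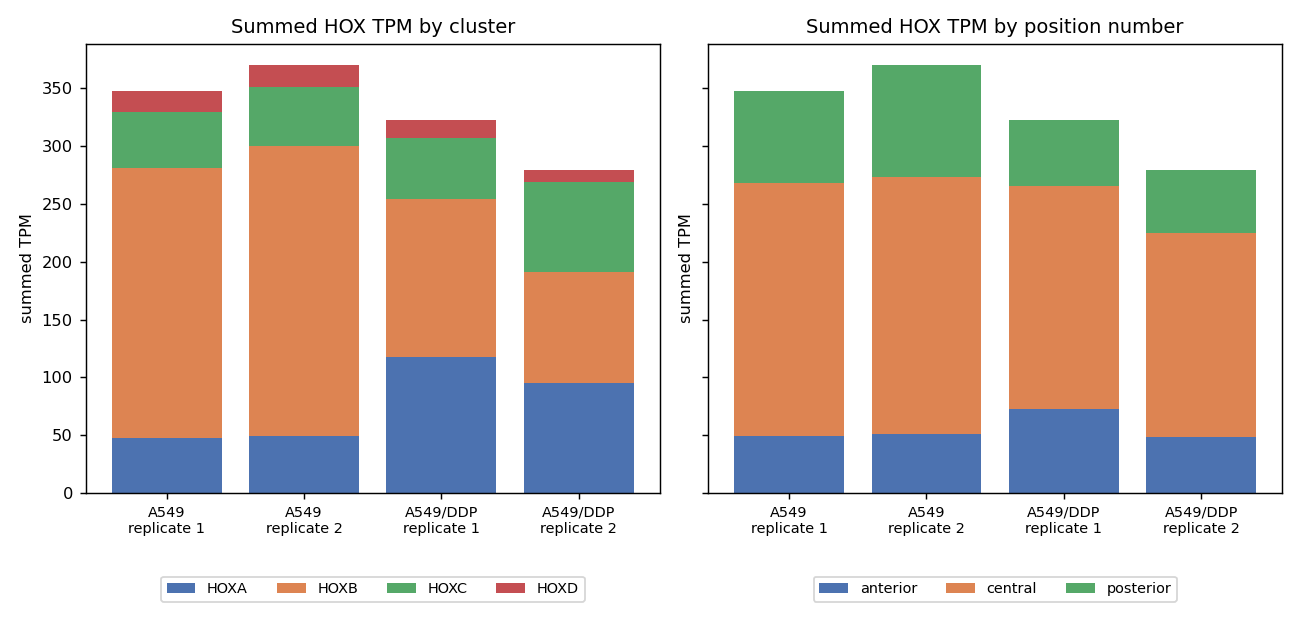
Summed TPM of the HOX genes in each input library, stacked by cluster on the left and by position number on the right; each bar is a library. HOXA held 117.76 and 94.88 TPM in the A549/DDP libraries and 47.73 and 49.43 in the A549 libraries, while HOXB held 136.25 and 96.41 against 233.41 and 250.69.

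By position number the lines were closer to each other. Central genes summed to 218.73 and 222.45 TPM in A549 and 192.27 and 176.66 in A549/DDP, and posterior genes to 79.05 and 96.21 against 57.17 and 54.38. Anterior genes overlapped between the lines, at 49.67 and 51.15 TPM in A549 and 72.95 and 48.25 in A549/DDP. Central genes therefore held the larger part of summed HOX TPM in every library, from 59.6% to 63.2%. TPM is scaled per length, and the estimated length of the central gene HOXB7 was short, at 537 to 631 bases. By count the posterior gene HOXB9 exceeded HOXB7 in A549 replicate 2, with 2035 against 1254. The position groups were not summed by count.

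Gene by gene, HOXA3 and HOXA5 rose and HOXB9 and HOXD10 fell in A549/DDP, and the other tested HOX genes did not pass the test. Of the 39 genes, 31 had enough counts to be tested (the quasi-likelihood test of edgeR, with p-values adjusted by Benjamini-Hochberg over 16406 genes and a threshold of 0.05), and 4 were called. That is 12.9%, against 14.9% of all genes tested; 2 were higher, where 6.85% of all genes tested were, and 2 lower, where 8% were. The share of HOX genes called was thus near the background. The median log2 fold change was -0.29 over the 31 HOX genes and -0.00 over all genes tested. An unadjusted p under 0.05 was found for 7 of the 31 genes, against 32.7% of all genes tested.

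**Figure D2:**
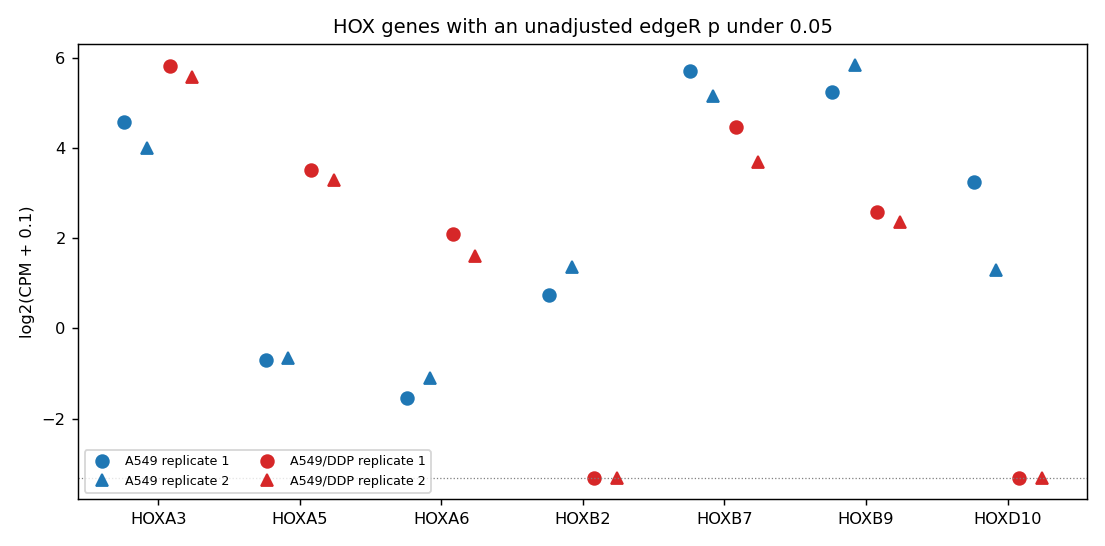
Level of the 7 HOX genes with an unadjusted edgeR p under 0.05 in each input library, as log2 of CPM (counts scaled by TMM library size) plus 0.1; the dotted line marks a count of 0. The 2 lines do not overlap for any of the 7 genes, and HOXB2 and HOXD10 lie at 0 in both A549/DDP libraries.

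HOXA5 showed the larger of the 2 rises called. HOXA5 is a central HOX gene with a known role in lung development, where its loss impairs the airways. It had 17 and 19 counts in the A549 libraries and 334 and 339 in the A549/DDP libraries, which is 0.53 ± 0.014 CPM against 10.5 ± 1.10 CPM (SD, n = 2 each). Both A549/DDP libraries lay far above both A549 libraries. The log2 fold change was 4.31 with a standard error of 0.76 (edgeR adjusted p = 0.0178). In the alternatives the direction held, and the call was lost only against the shallow A549 pair, in which HOXA5 had 0 counts (adjusted p = 0.136).

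HOXA3, an anterior gene with roles in the pharyngeal arches, was already well expressed in A549. Counts were 779 and 564 in A549 and 1669 and 1663 in A549/DDP, or 19.8 ± 5.49 CPM against 52.0 ± 6.11 CPM (SD, n = 2 each). The groups did not overlap, and the log2 fold change was 1.39 ± 0.30 (SE, edgeR adjusted p = 0.0313). Per transcript length the levels were 13.15 and 23.59 TPM in A549 and 49.63 and 28.1 TPM in A549/DDP, and the estimated transcript length ranged from 1238 to 2761 bases between libraries. The call was lost in limma on log2(TPM + 1) (adjusted p = 0.186), against both A549 pairs together (adjusted p = 0.0851) and without A549/DDP replicate 1 (adjusted p = 0.0803).

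HOXA4 and HOXA6, which lie between and beside these genes, were also higher in both A549/DDP libraries, but neither was called. HOXA6 had 8 and 13 counts in A549 and 124 and 102 in A549/DDP, with a log2 fold change of 3.53 ± 1.35 (SE, edgeR adjusted p = 0.131). Under DESeq2 the adjusted p was 0.0224. HOXA4 was not tested: its estimated counts were 1.21 and 0 in A549 and 292.34 and 5.67 in A549/DDP, so that the A549/DDP libraries differed greatly from each other. Summed with HOXA-AS2 and a locus known only by an Ensembl identifier, with which it shares reads, the counts were 181 and 78 in A549 and 871 and 715 in A549/DDP (log2 fold change 2.70, edgeR adjusted p = 0.03). This sum was chosen after the values were seen, and it is carried mostly by HOXA-AS2, a noncoding RNA on the opposite strand. HOXA4 summed with the Ensembl locus alone had 51.55 and 16 counts in A549 and 292.34 and 162.65 in A549/DDP, and was not called (edgeR adjusted p = 0.125). In that smaller sum the A549/DDP libraries lay closer to each other than in HOXA4 alone. The 4 neighbours HOXA3, HOXA4, HOXA5 and HOXA6 are the whole set of HOXA genes whose input CPM was higher in both A549/DDP libraries than in both A549 libraries. Leaving out HOXA4, which was not tested, this was 3 of 10 tested HOXA genes, against 29.7% of all genes tested. The share was thus near the background.

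The promoters of these neighbours are shown for HOXA4 and HOXA6, the members of the group with 1 window each, and for HOXD10, where a called peak reaches into the window. RefSeq (GRCh38.p14) gave promoter windows for 20 of the 39 genes. The sequences below are the 250 bases before the gene's start, 5′ to 3′ on the gene's strand, with capitals marking CCAAT on either strand. HOXA4 is chr7:27130758-27131007 and HOXA6 is chr7:27147775-27148024 (both minus strand), and HOXD10 is chr2:176116528-176116777 (plus strand).
HOXA4: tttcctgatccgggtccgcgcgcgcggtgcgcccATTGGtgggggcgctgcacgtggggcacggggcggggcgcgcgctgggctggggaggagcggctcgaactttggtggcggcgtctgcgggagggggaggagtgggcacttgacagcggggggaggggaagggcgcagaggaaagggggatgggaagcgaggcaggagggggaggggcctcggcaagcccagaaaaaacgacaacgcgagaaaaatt
HOXA6: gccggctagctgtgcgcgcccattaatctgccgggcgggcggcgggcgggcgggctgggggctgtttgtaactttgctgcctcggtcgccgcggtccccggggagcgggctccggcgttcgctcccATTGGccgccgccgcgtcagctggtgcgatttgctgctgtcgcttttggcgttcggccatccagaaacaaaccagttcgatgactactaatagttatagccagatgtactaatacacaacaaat
HOXD10: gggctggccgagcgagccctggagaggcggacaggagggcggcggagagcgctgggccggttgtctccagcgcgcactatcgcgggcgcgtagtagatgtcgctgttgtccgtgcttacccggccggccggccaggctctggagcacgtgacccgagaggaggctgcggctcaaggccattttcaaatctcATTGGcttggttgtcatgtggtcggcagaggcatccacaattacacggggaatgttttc
Each of the 3 sequences holds CCAAT once, in the form ATTGG, and G and C make up 62% to 70% of the bases. Over 27 windows of HOX genes, some of them of the same gene, 18 held CCAAT (66.7%), against 32% of all 35116 windows. TATAAA was in 18.5% of HOX windows and 10.7% of all windows, TGATNNAT in 11.1% and 6.47%, and AGGTCA in 0% and 12.1%, each counted on both strands, and none of these 3 motifs was in the sequences shown. These are counts of letters, and binding was not measured.

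HOXB9 showed the clearest fall. This posterior gene, known for its part in thoracic and mammary development, had 1235 and 2035 counts in A549 and 173 and 175 in A549/DDP. Its level was 47.5 ± 14.1 CPM against 5.43 ± 0.58 CPM (SD, n = 2 each), and the groups did not overlap. The log2 fold change was -3.13 ± 0.36 (SE, edgeR adjusted p = 0.00573). HOXB9 ranked 2nd of the HOX genes by mean TPM in A549 and 20th in A549/DDP. Against the shallow A549 pair, with 1 and 4 counts, the adjusted p was 0.178, and in all other alternatives the call was kept.

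HOXD10, a posterior gene active in limb and spinal motor neuron development, was found in A549 alone. It had 306.6 and 84 estimated counts in A549 and 0 and 0 in A549/DDP. Taking a floor of 3 counts per A549/DDP library, its CPM was at least 62.5-fold lower there (edgeR adjusted p = 0.0301). The A549 libraries themselves lay at 9.33 and 2.37 CPM. Without A549 replicate 1 the bound was 25.3-fold and the edgeR adjusted p was 0.33, and without A549 replicate 2 the bound was 99.7-fold. In limma on log2(TPM + 1) it was 0.120. HOXD10 and its neighbour HOXD11 share transcripts; their summed counts were 309 and 148 in A549 and 45 and 0 in A549/DDP, with an adjusted p of 0.325 in the same edgeR fit, so the call did not hold for the sum.

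HOXB7 and HOXB2 came close to the threshold. HOXB7, a central gene, had the highest TPM of all HOX genes in every library: 150.75 and 141.81 in A549 and 66.51 and 44.46 in A549/DDP. It made up 43.4% and 38.4% of the HOX total in A549 and 20.6% and 15.9% in A549/DDP. Its counts were 1703 and 1254 against 655 and 448, with a log2 fold change of -1.32 ± 0.38 (SE, edgeR adjusted p = 0.0673). It was called in 8 of 11 alternatives that left out no library. These took in DESeq2 (adjusted p = 0.0147), limma on log2(TPM + 1) (adjusted p = 0.0304) and edgeR without a filter (adjusted p = 0.00118). Another was the shallow A549 pair, with a log2 fold change of -3.94, where the median over all genes tested was 0.80. In TPM HOXB7 stood at 84.49 and 43.56 in that pair, which overlapped the A549/DDP values. Of the edgeR fits with 1 library left out, those without A549 replicate 2 (adjusted p = 0.0036) and A549/DDP replicate 1 (adjusted p = 0.032) called it, and those without A549 replicate 1 (adjusted p = 0.136) and A549/DDP replicate 2 (adjusted p = 0.158) did not. HOXB2, an anterior gene of the hindbrain, had 52 and 88 counts in A549 and 0 and 0 in A549/DDP, at least 21.7-fold lower in CPM with the same floor (edgeR adjusted p = 0.0684, and 0.00433 in DESeq2).

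**Figure D3:**
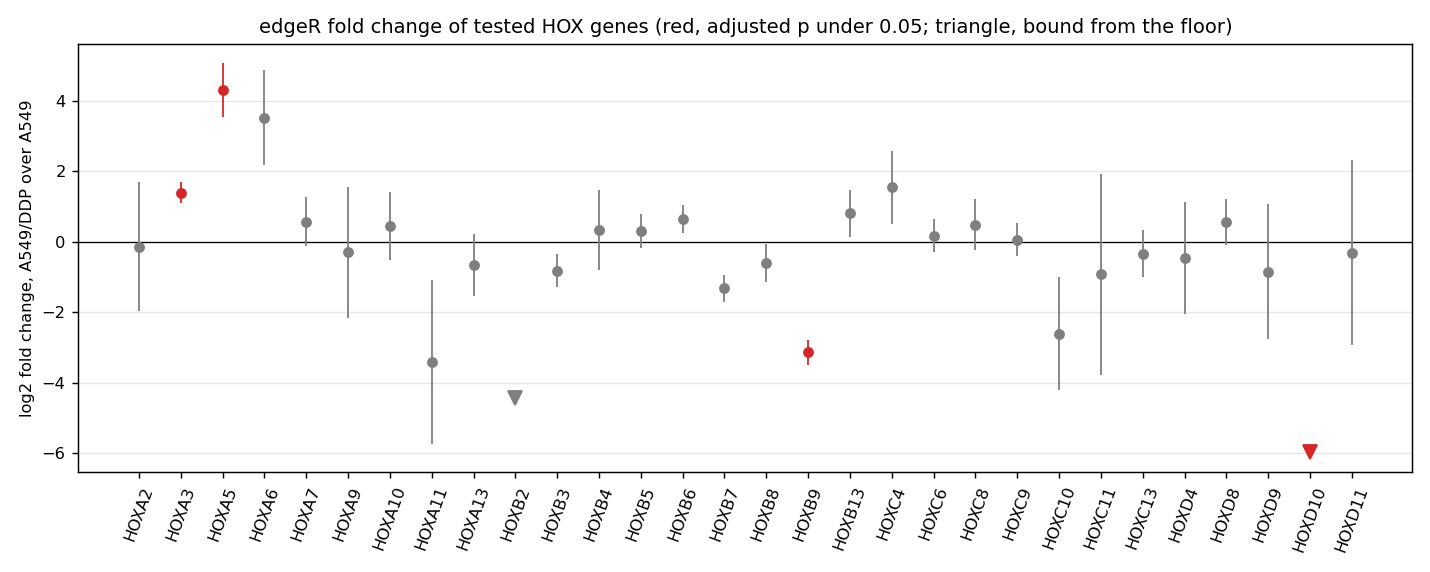
Log2 fold change of CPM, A549/DDP over A549, for tested HOX genes in the order of the clusters, with the standard error as bars; red marks an adjusted p under 0.05. Triangles mark HOXB2 and HOXD10, drawn at the bound that a floor of 3 counts per library allows, since both were at 0 in A549/DDP.

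The remaining tested HOXA genes did not pass the test, and several differed more between the A549/DDP libraries than between the lines. HOXA2, an anterior gene of the hindbrain, was at 2.71 and 1.96 TPM in A549 and 0.03 and 4.02 in A549/DDP, and HOXA9, a posterior gene known from leukaemia, at 1.66 and 4.05 against 6.52 and 0.05. Both were near 0 in a single A549/DDP library, and in each case the other A549/DDP library exceeded both A549 values. HOXA7 stood at 13.81 and 4.1 TPM against 8.25 and 17.3, and HOXA10 at 3.11 and 6.54 against 11.16 and 1.48. HOXA13, the last gene of the cluster, was at 1.96 and 1.89 against 0.52 and 1.93. HOXA11 was low throughout, at 0.69 and 0.72 TPM in A549 and 0.12 and 0 in A549/DDP, and its values did not overlap between the lines.

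Within HOXB, the genes other than HOXB2, HOXB7 and HOXB9 had an adjusted p well above the threshold. HOXB6 was at 19.12 and 16.05 TPM in A549 and 19.15 and 17.86 in A549/DDP, and HOXB5 at 5.64 and 7.43 against 7.46 and 8.73. HOXB3 was at 22.6 and 17.48 against 19.98 and 9.2, and HOXB8 at 9.49 and 22.17 against 14.11 and 7.81. These central and late anterior genes overlapped between the lines in TPM, apart from HOXB5. In CPM only HOXB3 overlapped. Both A549/DDP libraries lay above both A549 libraries in CPM for HOXB5 and HOXB6, and below them for HOXB8. HOXB4 was low, at 0.87 and 0.86 TPM against 1.51 and 0.69. HOXB13, a posterior gene set apart from the rest of its cluster and known from the prostate, was at 1.39 and 3.49 TPM against 3.88 and 4.49.

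No HOXC gene was called. HOXC9, the highest of the cluster, was at 21.64 and 22.46 TPM in A549 and 21.74 and 31.66 in A549/DDP, and HOXC6 at 7.95 and 13.63 against 17.1 and 24.73. HOXC8 was at 3.78 and 3.8 against 4.05 and 6.72, and HOXC4 at 2.54 and 1.06 against 6.87 and 3.7. All 4 had their lowest TPM in an A549 library. For HOXC6 and HOXC9 the estimated transcript length was shortest in A549/DDP replicate 2 (768 and 592 bases), which raises TPM for a given count. Their CPM overlapped between the lines, with log2 fold changes of 0.18 and 0.07. Both genes also enter the HOXC sum of 77.43 TPM in that library. HOXC10 went the other way, at 2.95 and 3.36 TPM in A549 and 0.15 and 0.42 in A549/DDP; on 82 and 55 against 5 and 17 counts its adjusted p was 0.329 in the edgeR test. HOXC13 varied between replicates, at 9.39 and 6.8 TPM against 2.95 and 10.2, and HOXC11 was at 0.43 TPM or less everywhere.

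The HOXD genes were low apart from HOXD8 and HOXD10. HOXD8 was at 3.37 and 6.85 TPM in A549 and 7.69 and 8.42 in A549/DDP. HOXD4 was at 0.39 and 3.23 against 1.35 and 1.17, and HOXD9 at 2.25 and 0.67 against 1.63 and 0.05. HOXD11 changed places between libraries, at 0.2 and 5.58 TPM in A549 and 4.61 and 0 in A549/DDP, so that each line had a library near 0. HOXD1 and HOXD13, neither of which was tested, reached at most 0.15 and 0.93 TPM.

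**Figure D4:**
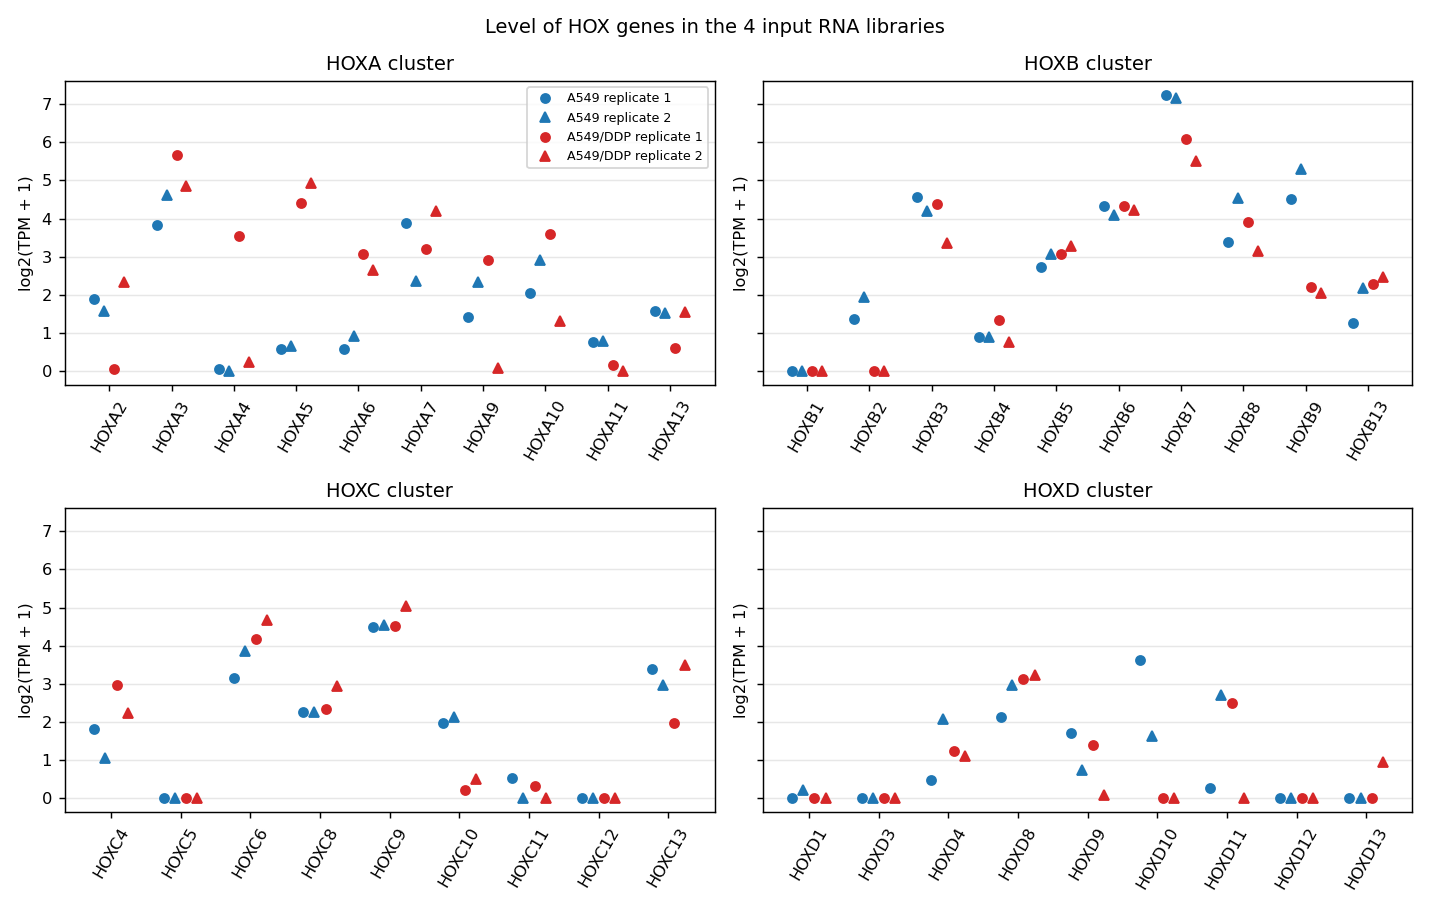
Level of HOX genes, as log2(TPM + 1), in each input library, with a panel per cluster and genes in the order of position number. HOXB7 is highest in every library, HOXA3 to HOXA6 lie higher in both A549/DDP libraries, HOXB9 lies lower in both, and replicates lie far apart for genes such as HOXA2, HOXA9 and HOXD11.

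Replicate spread limited what could be called. Among the 31 tested genes, 3 differed more than 4-fold between the A549 replicates (HOXC11, HOXD4 and HOXD11) and 5 between the A549/DDP replicates (HOXA2, HOXA9, HOXC11, HOXD9 and HOXD11), on CPM plus 0.1. This was 9.68% and 16.1% of the HOX genes. Among the 10745 tested genes within the HOX genes' range of mean CPM, the shares were 13.8% and 22.7%, so the HOX genes did not stand apart. In 9 of the 31 tested HOX genes both A549/DDP libraries had a higher CPM than both A549 libraries, and in 7 a lower one, against 29.7% and 32.7% of all genes tested. Of the 9, 7 were central genes (of 13 tested), and of the 7, 4 were posterior genes (of 13 tested).

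Among the TALE genes, whose proteins join HOX factors on DNA, the members given here did not pass the test. PBX2 had 47.88 and 60.16 TPM in A549 and 29.1 and 52.81 in A549/DDP, PBX3 25.27 and 40.71 against 18.31 and 28.74, and MEIS3 51.01 and 72.29 against 56.7 and 51.66. In TPM the lines overlapped for all 3. In CPM both A549/DDP libraries lay below both A549 libraries for PBX3 and above them for MEIS3, and only PBX2 overlapped. MEIS2 had 11.21 and 25.83 TPM against 24.85 and 19.46, PKNOX1 10.31 and 15.52 against 14.09 and 10.8, and MEIS1 4.83 and 12.67 against 0.48 and 8.03. For MEIS2 and PKNOX1 both A549/DDP libraries lay below both A549 libraries in CPM, and MEIS1 overlapped. PBX4 had 38 and 78 counts in A549 and none in A549/DDP (edgeR adjusted p = 0.0811). PKNOX2 had no counts.

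The noncoding RNAs of the clusters gave 1 call in 10 tested (10%, beside 14.9% of all genes tested), of 22 that had a gene identifier in these data. HOXA-AS2, opposite HOXA3 and HOXA4, rose with 129.45 and 62 estimated counts in A549 and 578.66 and 552.35 in A549/DDP (log2 fold change 2.64 ± 0.59 SE, edgeR adjusted p = 0.0351). Its estimated counts were not whole and became so only when summed with those of HOXA4 and the Ensembl locus named above, so the share of each in the others' values cannot be told apart. Among the related homeobox genes of the ParaHox and EVX groups only CDX2, the intestinal regulator of HOX genes, had enough counts to be tested, with 12 and 0 counts in A549 and 200 and 173 in A549/DDP (edgeR adjusted p = 0.126).

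Of the chromatin regulators that hold HOX clusters on or off, most did not pass the test. Of 12 tested Polycomb repressive complex 2 genes 1 was called (8.33%, beside 14.9% of all genes tested), EZH1, a catalytic subunit (log2 fold change -1.25, edgeR adjusted p = 0.0198), while the other catalytic subunit EZH2 had 1463 and 2386 counts against 1561 and 1978. Of 12 Polycomb repressive complex 1 genes 2 were called (16.7%): CBX2, a chromodomain subunit, rose (1.81, edgeR adjusted p = 0.0131) and PHC2, a polyhomeotic subunit, fell (-1.38, edgeR adjusted p = 0.0203). Of 13 genes of MLL/COMPASS and its partners 4 were called (30.8%). Menin (MEN1), the adaptor of MLL complexes, rose by 1.85 on the log2 scale (edgeR adjusted p = 0.00682). The H3K27 demethylase KDM6B (-2.13, adjusted p = 0.0102) and the H3K79 methyltransferase DOT1L (-1.48, adjusted p = 0.00744) were lower in the same edgeR fit. So was the chromatin tether PSIP1 (-0.87, edgeR adjusted p = 0.0283). MEN1, CBX2, DOT1L, EZH1 and PSIP1 were not called in any of the 3 limma fits, while KDM6B and PHC2 were called in each. Against both A549 pairs together none of these regulators was called (edgeR adjusted p from 0.0503 to 0.425). PSIP1 lost its call in 7 of 15 alternatives, among them all 3 limma fits and the edgeR fits without A549/DDP replicate 1 (adjusted p = 0.162) or replicate 2 (adjusted p = 0.0736). EZH1 lost its call without A549/DDP replicate 2 (adjusted p = 0.0753) and PHC2 without A549/DDP replicate 1 (adjusted p = 0.0574), and against the second A549 pair the log2 fold changes of EZH1 (1.34), PHC2 (0.32) and DOT1L (0.30) had the opposite sign, with none called.

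Retinoic acid genes were also called in both directions, with 4 of 13 tested (30.8%, beside 14.9% of all genes tested). RDH10, which makes retinaldehyde from retinol, had 352 and 453 counts in A549 and 2000 and 2721 in A549/DDP (log2 fold change 2.63, edgeR adjusted p = 0.00384). The receptor genes RARB (1.44, adjusted p = 0.022) and RXRA (1.16, adjusted p = 0.0182) rose and RARA fell (-1.64, adjusted p = 0.0262) in that fit. RXRA was not called in any of the 3 limma fits. Against both A549 pairs together none of these receptor genes was called (edgeR adjusted p from 0.0589 to 0.161). Against the second pair RARB and RXRA were called, and RARA was not (log2 fold change -0.19, edgeR adjusted p = 0.841). Without A549/DDP replicate 1 the edgeR adjusted p of RARB, RXRA and RARA was 0.0599, 0.0713 and 0.0506, so these 3 calls were lost. Of 10 tested genes that flank the clusters, CALCOCO1, next to HOXC, was called (1.55, edgeR adjusted p = 0.0222). It was not called in any of the 3 limma fits (adjusted p from 0.0641 to 0.0953). Nor was it called against both A549 pairs together (edgeR adjusted p = 0.0723). Over all 8 lists 14 of 79 tested genes were called (17.7%), beside 14.9% of all genes tested, and no list was tested as a set.

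Called m6A peaks lay on 23 of the 39 HOX genes in at least 1 of the m6A libraries. The 4 lists held 131 peaks at HOX genes. Replicates 1 and 2 of A549 had 50 and 20, and those of A549/DDP had 44 and 17. The whole lists held 26320, 14576, 27244 and 10661 peaks in the same order, so HOX genes had 0.19%, 0.137%, 0.162% and 0.159% of them. The number at HOX genes thus followed the length of each list, and the lists give no read depth. A peak on a list shows that a region passed the caller, and its absence may mean only that too few reads were there.

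**Figure D5:**
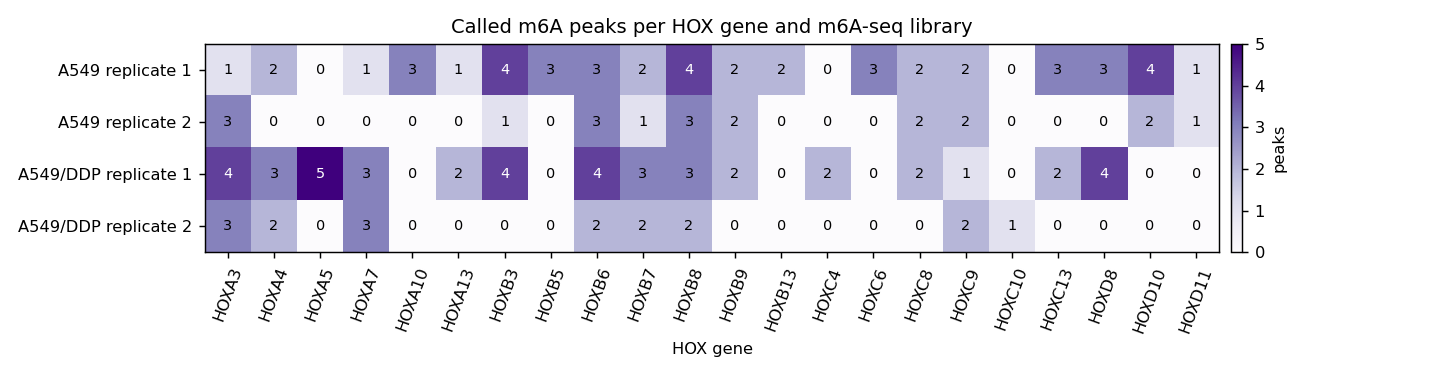
Number of called m6A peaks at HOX genes with any peak, by m6A library. HOXA3, HOXB6, HOXB7, HOXB8 and HOXC9 have peaks in all 4 libraries, HOXD10 and HOXD11 only in the A549 libraries, and the 2 replicate 1 libraries hold most of the rest.

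HOXA3, HOXB6, HOXB7, HOXB8 and HOXC9 carried peaks in all 4 libraries. This is 5 of the 23 HOX genes with a peak, against 23.8% of all 9899 genes with a peak in any library. Of the 39 genes 10 had a peak in both A549 libraries and 7 in both A549/DDP libraries. Among HOX genes with a mean TPM of 1 to 30, 8 of 24 had a peak in both A549 libraries and 5 of 24 in both A549/DDP libraries, against 22% and 11% of all genes in that range. HOXB7, the highest HOX gene by TPM, had 2, 1, 3 and 2 peaks in the order of the lists given above.

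Merging peaks of the same gene that shared at least 1 base gave 61 regions, of which 7 were called in all 4 libraries. The 7 lay in HOXA3 (chr7:27107668-27110646), HOXB6 (chr17:48595800-48597018 and chr17:48597117-48603810), HOXB7 (chr17:48607276-48608296), HOXB8 (chr17:48612592-48613085 and chr17:48613183-48613479) and HOXC9 (chr12:54000598-54003238). Each of them had its centre beyond 60% of the gene's RefSeq span, counted from the 5′ end, and so did 33 of all 61 regions. Another 14 had their centre in the first 20% of the span. Exons within the span were not mapped. Of the 61, 36 were called in a single library, 22 of them in A549 replicate 1 and 13 in A549/DDP replicate 1.

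At the genes called in the input RNA, peaks were listed mostly where the RNA was higher. HOXD10 had 4 and 2 peaks in the A549 libraries and none in A549/DDP, where its input count was 0; HOXD11 had 1 and 1 and none. These were the only HOX genes with peaks in both libraries of A549 and neither of A549/DDP, a pattern seen in 8.13% of genes with a peak, and 0 of the 23 had the opposite pattern, which 3.48% had. One HOXD10 region (chr2:176108989-176111412) overlaps the HOXD11 region (chr2:176108969-176109411), so these genes share part of the signal. HOXA5 had 5 peaks in A549/DDP replicate 1 with a p-value of 6.3e-11 each, and none in the other libraries. HOXA3 had 1 and 3 peaks in A549 and 4 and 3 in A549/DDP, and HOXB9 had 2 and 2 in A549 and 2 and 0 in A549/DDP.

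A further HOXD10 peak, listed for A549 replicate 1, lay over the start of the gene at chr2:176116723-176116823 and took in the last 55 bases of the HOXD10 sequence shown above. Its 101 bases hold GGAC, the core of a frequent m6A consensus, once. The 30 bases around it (chr2:176116786-176116815, plus strand) lie just past the end of that sequence and are shown, with GGAC in capitals, because they hold this match.
HOXD10 peak: gtcagcctacaaaGGACacaatctctcttc
The p-value listed for this peak was 1e-06, the same as for the other HOXD10 peaks of that library. Among 44 pairs of a HOX gene and a library with more than 1 peak, 31 had the same p-value for all peaks (70.5%, against 43.8% over all genes), so the p-value may describe the gene more than the peak.

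The central HOXA genes had peaks chiefly in A549/DDP. HOXA7 had 3 and 3 peaks in A549/DDP and 1 and 0 in A549, and HOXA4 had 3 and 2 against 2 and 0. Both were therefore listed in both A549/DDP libraries and in A549 replicate 1, in regions at chr7:27154466-27155065 and chr7:27128806-27129455. HOXA6 had no peak in any library. The difference in peak calls between the lines was not tested, since the lists hold no counts.

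Elsewhere peaks were listed mainly in the replicate 1 libraries. HOXC8 had 2, 2, 2 and 0 peaks in the order above, HOXB3 4, 1, 4 and 0, HOXC13 3, 0, 2 and 0, HOXD8 3, 0, 4 and 0 and HOXA13 1, 0, 2 and 0. HOXA10, HOXB5, HOXB13 and HOXC6 had 2 to 3 peaks in A549 replicate 1 alone, and HOXC4 had 2 in A549/DDP replicate 1 alone. HOXC10, low in the A549/DDP input, had its only peak in A549/DDP replicate 2. Of the 131 HOX peaks 13 (9.92%) shared bases with a peak listed on the opposite strand in the same library. The genes concerned were HOXA3 with HOXA-AS2, HOXA7 with HOXA-AS3, HOXA10 with HOXA10-AS, HOXB3 with HOXB-AS1 and HOXB6 with HOXB-AS3. For these the strand that carried the signal cannot be told from the lists.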

How the data were processed

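Input RNA and m6A-pulldown RNA of A549 and A549/DDP cells were sequenced as strand-specific paired-end libraries. The authors deposited, per input, gene tables in RSEM layout with expected counts (unnormalized estimates), TPM and FPKM (both scaled for length and depth). Per m6A library, the authors deposited called peaks with blocks, strand, a gene and a p-value; whether it was adjusted is not given in the sources used here. The submitters' processing notes name STAR, RSEM, bedtools and hg38. Replicate numbers follow the labels, which for the A549 m6A libraries swap those of the file names.

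HOX genes were matched by Ensembl identifier. Rounded expected counts that passed filterByExpr were TMM-scaled and compared by the quasi-likelihood test of edgeR 4.0.16 in R 4.3.3, 2 libraries against 2 without a block, adjusting over 16406 genes (Benjamini-Hochberg). Standard errors are the log2 fold change over the square root of F, an approximation. Scripts were tested on simulated data. Alternatives were DESeq2 1.42.0, limma 3.58.1 (log2 TPM or FPKM with a pseudocount), other filters and scaling, a replicate block, the second A549 pair and leaving out each library. Peaks were merged where blocks shared 1 base. Floors of 3 counts cover counting error only. The rule named HOX genes that passed the filter or had a peak, and of other lists the called genes with the lowest p and tested TALE genes; some items are not reported here. The members and lists were chosen with earlier results of these data known. Read tracks were not used here.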

Additional observations from a re-analysis of the deposited data

Results flagged for a closer look

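HOXB7 was above the limit that a count of 0 allows (3 counts) in both libraries of the second A549 input pair, which the report uses only as an alternative to the deeper pair. It had 36 and 28 counts there, and made up 82.6% and 72.6% of the summed HOX TPM of those libraries. No other HOX gene exceeded 3 counts in both. These libraries are the shallow ones, with 855034 and 982036 counts.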

How the results depend on the processing

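In the alternatives that left out no library, the calls of HOXB9 and HOXA5 held in 10 of 11 each. That of HOXA3 held in 7 of 11 and that of HOXD10 in 5 of 8. None of these genes reversed in log2 fold change in any alternative, and neither did HOXA6, HOXB2 or HOXB7. The other HOX genes were not followed in the alternatives. HOX genes called higher, 2 in the report, numbered 1 in each limma fit, against the second A549 pair and against both pairs, and from 1 to 3 when a library was left out. HOX genes called lower, 2 in the report, numbered 4 in DESeq2. Summing the counts of read-sharing genes, chosen after seeing the data, gave 1. Against the second pair 1 was called, HOXB7, which is not among the 2 of the report. Neither HOXB9 (edgeR adjusted p = 0.178) nor HOXD10 was called there. Members of the related lists called, 14 in the report, numbered 22 in DESeq2, 9 in limma on log2(TPM + 1) or log2(FPKM + 1), 7 on log2(TPM + 0.1), 2 against both pairs, and from 10 to 22 when a library was left out. Against the second pair DOT1L (0.30), EZH1 (1.34) and PHC2 (0.32) reversed in log2 fold change. Leaving out a library left a line with 1 library, assumed to vary like the other line. The causes were not tested.

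The log2 ratio of summed TPM against the second pair was 5.18 for HOXA, 0.78 for HOXB, 2.89 for HOXC, 2.85 for HOXD, 4.03 for anterior, 1.48 for central and 2.31 for posterior genes, where the report's libraries gave 1.13, -1.06, 0.39, -0.49, 0.27, -0.26 and -0.65. The HOXB and HOXD sums and the central and posterior sums thus changed direction there. With 1 library left out the ratio ranged from 0.97 to 1.28 for HOXA, -1.33 to -0.83 for HOXB and -0.06 to 0.53 for anterior genes.

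HOX genes with a peak in both A549 libraries, both A549/DDP libraries and all 4 numbered 10, 7 and 5, and at a p-value at or below 1e-05 they numbered 3, 3 and 1; taking either library of a line gave 20, 16 and 13. With 1 library left out the ranges were 10 to 20, 7 to 15 and 5 to 8; the largest moves were without A549 replicate 2 and without A549/DDP replicate 2. Of the merged regions 1 was called in all 4 lists at the stricter p-value, and 44 to 62 regions were found with 1 library left out.

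In the input RNA, differences between replicates 1 and 2 were hardly correlated between the lines (r = 0.023 over 16406 genes). A correlation over all genes cannot show whether same-numbered libraries shared a batch, and the labels name none. With the replicate block 5 HOX genes were called, HOXB7 (edgeR adjusted p = 0.00804) being added. All genes called numbered 2437 in the report, 4234 in DESeq2, 3536 with the block, 4010 without the filter, 1492 in limma on log2(TPM + 1) and 677 against both pairs.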
